A study of Mus musculus with 3 samples.

Results

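Endothelin signalling was examined by RNA-Seq in the maxillary process of mouse embryos of the genotype *Wnt1cre; Rosa26Dlx2/-*, at E10.5 and in 3 libraries. The 9 genes, chosen by name as ligands, receptors, processing enzymes and an effector of the pathway, were *Edn1*, *Edn2*, *Edn3*, *Ednra*, *Ednrb*, *Furin*, *Ece1*, *Ece2* and *Mef2c*. They are 9 of 55401 genes counted, and all of them were found in the count tables. All 3 libraries carry the *Wnt1cre* driver and a *Rosa26* allele (CAG-LSL-Dlx2-3xFlag) from which Cre switches on *Dlx2* in cells of the neural crest lineage, and are named OE replicates 1, 2 and 3 here. Cells of other origin in the dissected tissue, such as surface epithelium, vessels and muscle precursors, keep the allele off as far as the driver is restricted. The libraries came from independent RNA samples, and whether embryos were pooled is not given in the sources used here. The wild-type libraries of the study were not analysed here, so every value describes the OE embryos and no difference between genotypes was tested.

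Endothelins are short peptides cut out of larger precursors. Furin, a protease of the secretory pathway, releases an inactive intermediate from the precursor, and endothelin converting enzymes (*Ece1*, *Ece2*) then cut behind a tryptophan to free the active peptide. In the first pharyngeal arch, endothelin-1 (*Edn1*) made by epithelium and core mesoderm acts on the type A receptor (*Ednra*) of neural crest mesenchyme, through Gq proteins and the transcription factor *Mef2c*, and the signal is known for giving the lower jaw its identity. The upper jaw forms from maxillary mesenchyme that is known to receive little of it. Endothelin-3 (*Edn3*) and the type B receptor (*Ednrb*) are known for their part in the pigment cell and enteric nerve lineages.

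The parts of the 3 ligand messages that encode the active peptide are shown, because the balance between the ligands is among the main results below. Each run is coding sequence from exon 2 of 5, taken from GENCODE M21 transcripts (GRCm38) and read 5′ to 3′. The capitals at the start mark the 4 codons of the basic site at which furin-type enzymes cut, and the capitals at the end mark the tryptophan codon and the codon after it, between which converting enzymes cut. The bases are at chr13:42303637-42303714 for *Edn1*, chr4:120161939-120162016 for *Edn2* and chr2:174761737-174761814 for *Edn3*, all on the plus strand.
Edn1: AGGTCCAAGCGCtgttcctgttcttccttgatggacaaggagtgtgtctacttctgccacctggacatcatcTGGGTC
Edn2: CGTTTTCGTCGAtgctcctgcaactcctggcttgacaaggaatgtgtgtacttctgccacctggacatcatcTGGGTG
Edn3: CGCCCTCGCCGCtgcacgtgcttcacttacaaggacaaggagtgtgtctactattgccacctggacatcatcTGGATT
The active peptide has 21 residues in each precursor. *Edn1* and *Edn2* differ at 3 of the 21 residues and at 10 of 63 bases. *Edn3* differs from *Edn1* at 6 residues and 13 bases, and from *Edn2* at 6 residues and 15 bases. All precursors have the basic site, and the codon after the tryptophan encodes valine in *Edn1* and *Edn2* and isoleucine in *Edn3*. With 10 to 15 differing bases within this stretch, the ligand messages are distinct in sequence there.

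The targeted gene, *Dlx2*, had 9089, 7150 and 6890 counts in OE replicates 1, 2 and 3. Counts on genes ranged from 35351031 to 40057435 per library. Values are given as CPM, a gene's counts scaled to 1 common library size with TMM factors, and a gene at 0 counts may still be present at up to 0.0777 to 0.0843 CPM, which is 3 counts and covers counting error only. OE replicate 1 stood apart from the others in neuron markers, summing to 273 CPM over 9 genes against 24.3 and 35.9 in OE replicates 2 and 3. It was also the library with *Xist* (671 CPM against 0.309 and 0.557) and without counts on 4 genes of the Y chromosome. Blood markers were lowest in it, with a sum over 5 genes of 1950, 3630 and 4260 CPM in OE replicates 1, 2 and 3. Pigment cell markers summed to 35.0, 46.1 and 120 CPM in the same order. The mesenchyme markers *Prrx1*, *Twist1*, *Prrx2* and *Pdgfra* summed to 1270, 1250 and 1300 CPM. The sum was even, but *Prrx1* was lowest (629, 582 and 419 CPM) and *Twist1* highest (317, 342 and 464 CPM) in OE replicate 3. Markers of the hyoid and posterior arches were nearly absent, with *Hoxa2* at 6, 0 and 0 counts, *Hoxa3* at 3, 0 and 0 and *Hoxb2* at 1, 0 and 2. The counts come from whole tissue, so fewer cells of a type and less RNA per cell cannot be told apart for any gene below.

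Among the ligands, *Edn3* was the main message and *Edn1* was scarce. *Edn3* (ENSMUSG00000027524, chr2:174760619-174784042) had 854, 604 and 715 counts in OE replicates 1, 2 and 3, or 22.1, 17.0 and 19.0 CPM. The libraries lay close together, with a mean of 19.4 ± 2.60 CPM (SD, n = 3). *Edn1* (ENSMUSG00000021367, chr13:42301476-42307990) had 43, 14 and 19 counts, or 1.11, 0.393 and 0.504 CPM. OE replicate 1 was the high library for *Edn1*, and the mean of 0.671 ± 0.388 CPM (SD, n = 3) was 0.449 without it. *Edn2* (ENSMUSG00000028635, chr4:120161206-120167360) had 0 counts in every library and was not detectable at this depth.

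Per kilobase of exonic length, the scale on which different genes can be set side by side, *Edn3* was 10.3, 22.4 and 19.6 times the level of *Edn1* in OE replicates 1, 2 and 3. The mean ratio of 17.4 was 31.7 with coding length. *Edn1* therefore made up 8.83%, 4.27% and 4.86% of the summed ligand level per length, with a mean of 5.99% ± 2.48 (SD, n = 3). In raw counts the share of *Edn1* among ligand counts was 4.79% in OE replicate 1 (95% Wilson interval 3.58 to 6.39%), 2.27% in OE replicate 2 (1.35 to 3.77%) and 2.59% in OE replicate 3 (1.66 to 4.01%). The interval of OE replicate 1 overlapped the others only at its lower end. Overlap is no test of whether the share differed between libraries. *Edn3* was the larger in every library. These intervals cover counting error only.

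*Edn1* is known as a product of epithelium, vessel lining and arch core mesoderm, so markers of these cells are given beside it. The 6 epithelium markers, with *Krt18*, *Krt8*, *Epcam* and *Trp63* the most abundant of them in mean CPM, summed to 340, 223 and 224 CPM in OE replicates 1, 2 and 3. The 5 muscle precursor markers, with *Tbx1*, *Msc*, *Myf5* and *Tcf21*, summed to 39.6, 21.9 and 32.6 CPM, and the 6 endothelium markers, with *Cdh5*, *Kdr*, *Tie1* and *Pecam1*, to 292, 325 and 241 CPM. OE replicate 1 was highest for *Edn1*, for the epithelium sum and for the muscle precursor sum, but not for the endothelium sum. Genes within the sums went different ways, since *Trp63* (55.4, 29.6 and 11.4 CPM) was highest in OE replicate 1 and *Krt18* (86.7, 65.5 and 108 CPM) in OE replicate 3. *Tbx1*, at 30.1, 17.8 and 27.5 CPM, was most of the muscle precursor sum, and *Myod1* (0.777, 1.35 and 1.43 CPM) was lowest in OE replicate 1. Set against 1000 CPM of epithelium markers, *Edn1* was at 3.27, 1.76 and 2.25 CPM, so the ratio varied 1.86-fold where *Edn1* itself varied 2.83-fold. The ratio to muscle precursor markers (28.1, 17.9 and 15.5) varied 1.82-fold, and that to endothelium markers (3.81, 1.21 and 2.10) varied 3.16-fold. The part of these cells in the level of *Edn1* was not tested.

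Promoters of the leading ligand and of the arch ligand are shown, since the embryos overexpress a homeodomain factor and these are the ligands with counts. The 250 bases before the RefSeq start (GRCm38.p6) were searched on both strands for TAATTG and TAATTA, cores that homeodomain proteins are known to bind. TAATTG reads CAATTA on the other strand and TAATTA reads the same on both. TATAAA, the TATA box core, was searched as well. The capitals mark a match, at chr13:42301226-42301475 (plus strand) for *Edn1* and chr2:174760369-174760618 (plus strand) for *Edn3*.
Edn1: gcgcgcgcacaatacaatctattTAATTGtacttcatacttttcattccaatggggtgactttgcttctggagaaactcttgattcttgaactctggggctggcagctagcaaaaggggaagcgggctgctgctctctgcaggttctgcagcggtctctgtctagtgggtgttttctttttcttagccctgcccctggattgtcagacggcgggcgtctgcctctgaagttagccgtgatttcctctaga
Edn3: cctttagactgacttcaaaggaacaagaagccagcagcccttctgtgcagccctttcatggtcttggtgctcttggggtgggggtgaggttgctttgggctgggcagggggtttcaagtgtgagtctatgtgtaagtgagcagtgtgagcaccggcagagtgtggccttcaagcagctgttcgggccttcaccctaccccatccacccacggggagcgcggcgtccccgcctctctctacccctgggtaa
*Edn1* holds TAATTG and *Edn3* holds neither core. TAATTG is in 7.17%, TAATTA in 4.84% and TATAAA in 12.4% of 32851 promoter windows of this length. Of the other members, *Mef2c* has TAATTG before its first and TAATTA before its second listed start, and the windows of *Edn2*, *Ednra*, *Ednrb*, *Furin*, *Ece1* and *Ece2* hold neither. The match of *Mef2c* is on both strands, as overlapping letters. TATAAA is in windows of *Furin* and *Mef2c* only. A match is a string of letters in a window and not a binding site.

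**Figure D1:**
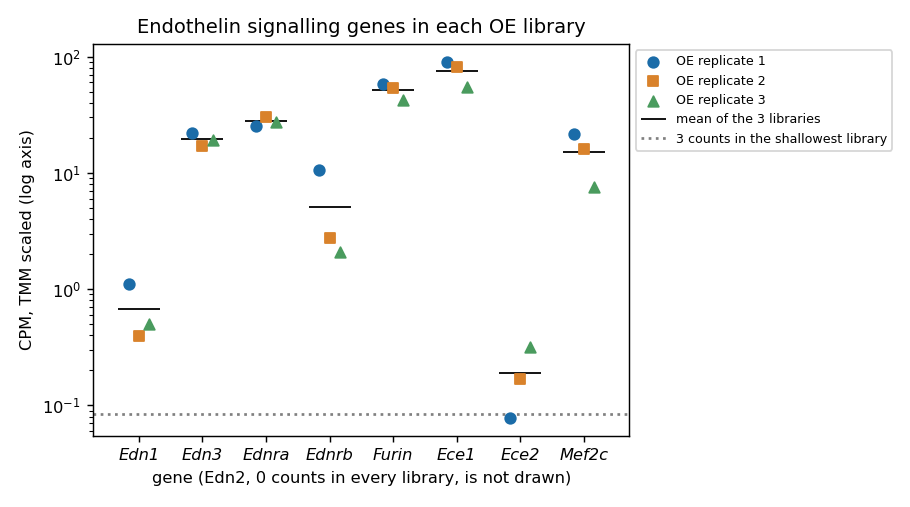
CPM after TMM scaling (log axis) of the members in OE replicates 1, 2 and 3 (points), with the mean of the libraries (line) and the level of 3 counts in the shallowest library (dotted). *Ednra* and *Edn3* lie within a narrow band, while *Ednrb*, *Edn1* and *Mef2c* are spread and highest in OE replicate 1. *Ece2* lies near the dotted line.

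Of the receptors, *Ednra* was the steadier and, per length, the higher. *Ednra* (ENSMUSG00000031616, chr8:77663031-77724464), the receptor of neural crest mesenchyme, had 967, 1082 and 1037 counts, or 25.1, 30.4 and 27.5 CPM. Its mean was 27.7 ± 2.67 CPM (SD, n = 3), and the highest library was 1.21 times the lowest. Against 1000 CPM of mesenchyme markers, *Ednra* was at 19.8, 24.2 and 21.2 CPM.

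*Ednrb* (ENSMUSG00000022122, chr14:103814625-103844402), the receptor of the pigment, glial and enteric crest lineages, had 404, 97 and 79 counts, or 2.45, 0.639 and 0.492 CPM per kilobase of exonic length. Here OE replicate 1 was 3.84 times OE replicate 2 and 4.99 times OE replicate 3 in CPM. The mean of 5.10 ± 4.66 CPM (SD, n = 3) depended on OE replicate 1 and was 2.41 CPM without it.

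Per kilobase, *Ednra* was 1.86, 8.69 and 10.2 times *Ednrb* in OE replicates 1, 2 and 3, so the order held in every library while its size did not. *Ednra* made up 65.1%, 89.7% and 91.1% of the receptor level per length, a mean of 82.0% ± 14.6 (SD, n = 3) that became 90.4% without OE replicate 1. In raw counts its share was 70.5% (95% Wilson interval 68.1 to 72.9%) in OE replicate 1, below the intervals of OE replicate 2 (90.1 to 93.2%) and OE replicate 3 (91.3 to 94.3%).

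*Ednrb* and glial and crest markers were high in the same library. *Sox10*, a factor of crest-derived glia and pigment cells, was at 37.2, 5.65 and 7.94 CPM, and the sum of 3 glia and crest markers, *Sox10*, *Foxd3* and *Fabp7*, was 50.0, 7.16 and 12.4 CPM. OE replicate 1 was high in both, as for *Ednrb*, which was at 210, 380 and 169 CPM per 1000 CPM of this sum. The ratio varied 2.25-fold across libraries in which *Ednrb* varied 4.99-fold. Pigment cell markers did not go this way, since *Pmel* was at 0.363, 5.98 and 71.8 CPM, *Dct* at 0.207, 1.55 and 13.1 CPM and *Mitf* at 1.84, 4.78 and 7.51 CPM. *Kit*, which other cells also use, was at 32.5, 33.2 and 21.6 CPM and made up most of the pigment sum in OE replicates 1 and 2. *Mlana* was at or under 3 counts in every library. Neuron markers, led by *Tubb3* at 115, 7.64 and 16.9 CPM, were also high in OE replicate 1, and the part of any of these cells, or of embryo sex, in the level of *Ednrb* was not tested.

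**Figure D2:**
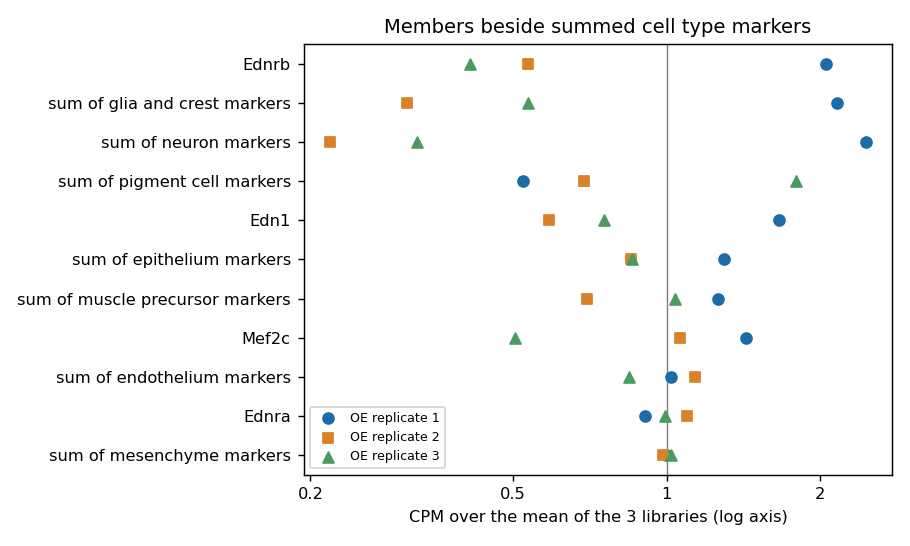
CPM of *Ednrb*, *Edn1*, *Mef2c* and *Ednra* and summed CPM of marker lists in each OE replicate, divided by the mean of the 3 libraries (log axis). *Ednrb*, the glia and crest sum and the neuron sum are highest in OE replicate 1, the pigment cell sum is highest in OE replicate 3, and *Ednra* and the mesenchyme sum stay near 1.

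The processing enzymes *Ece1* and *Furin* had the highest CPM of the members. Per kilobase of exonic length *Ece1* was highest in every library, while *Furin* was below *Ednra* and *Edn3* in OE replicate 3. The lead of *Ece1* over *Edn3* depended on the length used, since their means with coding length were 32.4 and 30.2. *Ece1* (ENSMUSG00000057530, chr4:137862237-137965229), which makes the final cut, had 3477, 2865 and 2048 counts, or 90.1, 80.5 and 54.4 CPM. *Furin* (ENSMUSG00000030530, chr7:80388585-80405436), which serves many precursors besides the endothelins, had 2241, 1927 and 1577 counts, or 58.1, 54.1 and 41.9 CPM. Both were lowest in OE replicate 3, and the means were 75.0 ± 18.5 CPM for *Ece1* and 51.4 ± 8.45 CPM for *Furin* (SD, n = 3). Per kilobase, *Ece1* was 2.69, 2.57 and 2.25 times *Furin*, a ratio of 2.50 ± 0.227 (SD, n = 3) that was 1.72 with the length of the longest transcript and 1.52 with coding length.

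*Ece2* (ENSMUSG00000022842, chr16:20629828-20646485), the second converting enzyme, had 3, 6 and 12 counts. These counts cannot be read as its whole message, because most of its exons belong to another gene as well. Of its 5110 exonic bases, 2937 (57.5%) are also exons of *Gm49333*, an annotated protein-coding gene on the same strand, and 90.6% of the coding bases of *Ece2* are shared in this way. *Gm49333* in turn shares 100% of its exonic bases with other genes and had 0 counts in every library. Reads that fit more than 1 gene were left unassigned in the deposited tables, where they made up 6.11%, 6.10% and 6.96% of counted reads. Over the 2173 exonic bases that *Ece2* does not share, its counts came to 0.0358, 0.0776 and 0.147 CPM per kilobase. Overlaps of the other members were small, at 35 bases of *Edn1* with *Gm47118*, 91 of *Ednra* with *4933431K23Rik* and 118 of *Furin* with *Gm44851*, all on the opposite strand. These partners had at most 24 counts in any library. The strand setting of the counting is not known, and without strand the reads of a gene and its antisense partner cannot be told apart.

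**Figure D3:**
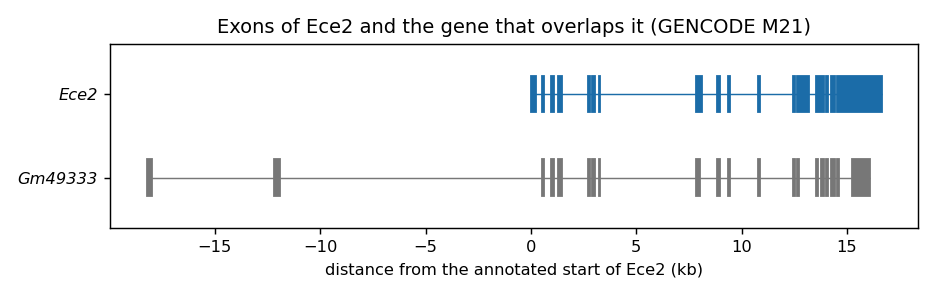
Exons (boxes) of *Ece2* and of *Gm49333* by distance in kilobases from the annotated start of *Ece2*, from GENCODE M21. The exons of *Gm49333* fall on exons of *Ece2* through most of its length, which is where 2937 of the 5110 exonic bases of *Ece2* are shared.

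*Mef2c* (ENSMUSG00000005583, chr13:83504034-83667080), the transcription factor downstream of the receptor that is also used in muscle, vessels and neurons, had 828, 565 and 285 counts. At 21.5, 15.9 and 7.57 CPM it was highest in OE replicate 1 and lowest in OE replicate 3, with a mean of 15.0 ± 6.99 CPM (SD, n = 3). Per kilobase it was 0.298, 0.182 and 0.0958 times *Ednra*, and the mean ratio of 0.192 was 0.318 with the length of the longest transcript and 0.449 with coding length. The endothelium sum was 292, 325 and 241 CPM, and *Mef2c* per 1000 CPM of that sum was 73.4, 48.8 and 31.4. Within this list *Tek* (21.3, 19.3 and 12 CPM) had the library order of *Mef2c*, *Kdr* (77.6, 84.1 and 37.3 CPM) was lowest in OE replicate 3, and *Tie1* (49.0, 60.5 and 62.5 CPM) was highest there. The neuron and muscle precursor sums were highest in OE replicate 1, as *Mef2c* was, and *Mef2c* per 1000 CPM of neuron markers was 78.6, 654 and 211. The part of these cells in the level of *Mef2c* was not tested.

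By mean CPM per kilobase the members were ordered *Ece1* (14.1 ± 3.49), *Furin* (5.60 ± 0.921), *Ednra* (5.05 ± 0.488), *Edn3* (4.71 ± 0.632), *Ednrb* (1.19 ± 1.09), *Mef2c* (0.952 ± 0.445), *Edn1* (0.314 ± 0.181), *Ece2* (0.0368 ± 0.0238) and *Edn2* at 0 (SD, n = 3). Neighbours were called separate where their ranges over the 3 libraries did not overlap. By this rule 3 pairs were separate: *Ece1* over *Furin*, *Edn3* over *Ednrb* and *Edn1* over *Ece2*. *Ece2* and *Edn2* were not ranked against each other. The 0 counts allow *Edn2* a level of up to 0.0532 to 0.0577 CPM per kilobase, above *Ece2* over all its exonic bases in OE replicates 1 and 2. Over the bases that *Ece2* does not share (0.0358, 0.0776 and 0.147), that limit was above it in OE replicate 1 only. *Edn1* was above *Ece2* on that scale too, in every library. The ranges of *Furin* and *Ednra* overlapped, as did those of *Ednra* and *Edn3*, and each of these pairs changed places in 1 library. *Ednrb* and *Mef2c* also overlapped, and their order turned without OE replicate 1, with the length of the longest transcript (*Mef2c* 2.38, *Ednrb* 1.24) and with coding length (*Mef2c* 9.53, *Ednrb* 3.84). *Mef2c* was above *Edn1* in each of the 3 libraries, although the range of *Edn1* reached 0.521 and that of *Mef2c* began at 0.481. Against protein-coding genes that averaged 10 counts or more, *Ece1* stood at percentile 74.1 per length, *Furin*, *Ednra* and *Edn3* at percentiles 53.9, 51.6 and 50.1, and *Edn1* at 11.7.

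**Figure D4:**
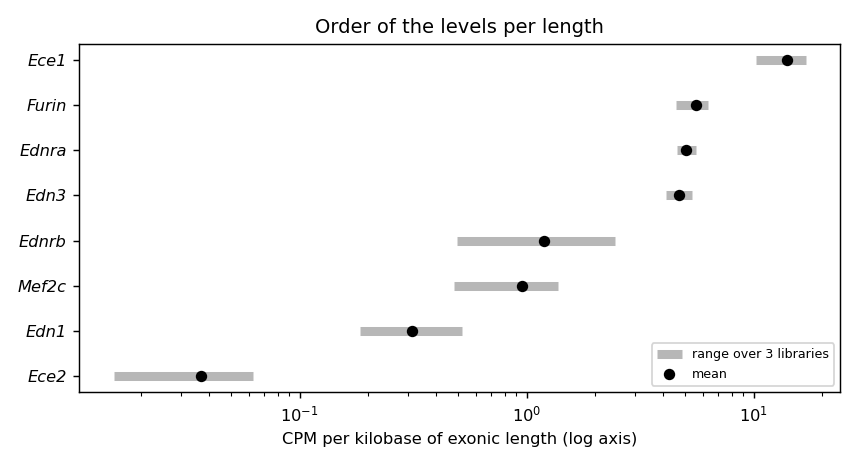
Mean (point) and range over the 3 OE libraries (bar) of CPM per kilobase of exonic length, on a log axis, in descending order of the mean. *Edn2*, at 0, is not drawn. The bars of *Furin*, *Ednra* and *Edn3* overlap one another, and *Ece1* lies above them.

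The spread of each member between libraries was set against counting error with a chi-square test (2 degrees of freedom, Benjamini-Hochberg adjustment over the 17115 genes that averaged 10 counts or more). All 7 members that passed this filter, that is all but *Edn2* and *Ece2*, differed between libraries by more than counting noise. The share over all genes tested was 81.5%, or 53.4% where every gene with a count was tested (7 of 8 members, *Ece2* not among them), so the members do not stand out by it. Adjusted p-values ran from 5.84e-75 for *Ece1* and 3.65e-69 for *Ednrb* to 0.000107 for *Ednra* and 0.000351 for *Edn1*. Without OE replicate 1 only 4 members passed, and *Edn1* (adjusted p = 0.533), *Ednrb* (0.109) and *Edn3* (0.0591) did not, against a share of 71.2% over all genes. All 7 passed without OE replicate 2 and without OE replicate 3, where the shares were 77.7% and 48.8%. The test compares libraries of 1 group and says nothing of conditions.

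The observed spread of CPM over the 3 libraries (SD as a percentage of the mean, counting error included) was 91.5% for *Ednrb*, 57.9% for *Edn1* and 46.7% for *Mef2c*. It was 24.7% for *Ece1*, 16.5% for *Furin*, 13.4% for *Edn3* and 9.67% for *Ednra*. The biological coefficient of variation that edgeR estimates is drawn toward the trend over genes of like abundance, so it is not the observed spread of a gene. It ran from 0.243 for *Furin* to 0.622 for *Ednrb*, with a common value of 0.371 over all genes. The highest library was at least 2-fold over the lowest for *Edn1*, *Ednrb* and *Mef2c*, 3 of the 7 members tested, where 34.8% of all genes were.

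OE replicate 1 was the highest library for 6 of these 7 members, and *Ednra* was highest in OE replicate 2. Over all genes tested, 39.6% were highest in OE replicate 1, 17.2% in OE replicate 2 and 43.2% in OE replicate 3. No member was highest in OE replicate 3. The libraries also differed by gene length, so the median of genes of like exonic length (20 length classes) was set beside each member. *Furin*, with 9178 exonic bases, was at -0.42 in OE replicate 3 on the log2 scale against the mean of the other libraries, and its length class had a median of -0.50. *Mef2c*, with 15715 exonic bases, was at -1.28 where its class was at -0.65, and *Ece1* at -0.65 where its class was at -0.22. In OE replicate 1, *Ednrb* was at 2.11 and *Edn1* at 1.23, while their classes were at 0.05 and -0.25. *Furin* thus followed its length class, and *Ednrb* and *Edn1* were far from theirs.

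**Figure D5:**
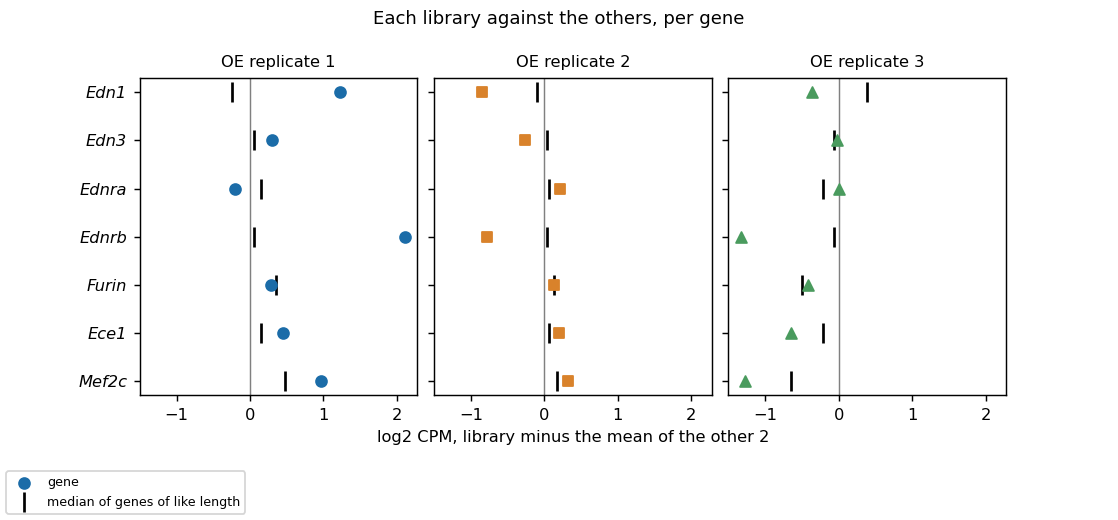
Log2 CPM in each OE replicate minus the mean of the other 2, for the 7 members that averaged 10 counts or more (coloured points), with the median of genes of like exonic length (black bars). *Ednrb* reaches 2.11 in OE replicate 1, and *Furin* lies beside its length class in each panel.

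Genes with the most similar profile over the 3 libraries were sought among genes that averaged 100 counts or more, by Euclidean distance of log2 CPM centred on each gene's mean. Nearest to *Edn1* were *Egflam* (distance 0.020, at 23.0, 8.63 and 11.0 CPM), *Parm1* (0.12) and *Phactr1* (0.15), and 1 of 11855 genes lay within 0.1. Nearest to *Ednra* were *Shtn1* (0.0064), *Myo5b* (0.0078) and *Abtb2* (0.010), with 188 of 11854 genes within 0.1. The profile of *Ednrb* had no gene within 0.1, and its nearest were *Gfra1* at 6.87, 1.74 and 1.62 CPM, a receptor subunit for neurotrophic factors, *Erbb3* at 30.5, 9.44 and 5.95 CPM, a neuregulin receptor, and *Elavl2* at 20.3, 5.03 and 3.29 CPM, an RNA-binding protein of neurons. *Ece1* and *Furin* had 746 and 834 genes within 0.1, so their profiles were common ones. With 3 libraries these distances describe the libraries only.

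Other genes of the pathway were counted from 6 further lists. Of 40 such genes 38 passed the count filter and 32 differed between libraries by more than counting noise, beside the 81.5% over all genes. The other proprotein convertases, which share substrates with *Furin*, were led by *Pcsk7* (25.3 ± 1.38 CPM), *Pcsk5* (13.6 ± 0.729), *Pcsk4* (10.7 ± 5.88) and *Pcsk6* (4.80 ± 1.5), and 3 of 5 tested differed. Per kilobase, *Pcsk7* was at 4.86 ± 0.265, *Pcsk4* at 3.61 ± 1.99 and *Pcsk5* at 0.944 ± 0.0505 (SD, n = 3), with *Furin* at 5.60 ± 0.921. *Pcsk4* was uneven, at 6.40, 8.26 and 17.4 CPM in OE replicates 1, 2 and 3. The neprilysin and ECE family peptidases, relatives of *Ece1* that include endothelin-degrading neprilysin (*Mme*), were low. *Mme* was at 0.846 ± 0.333 CPM per kilobase and *Kel* at 2.43 ± 1.06 (SD, n = 3), and *Phex*, *Ecel1* and *Mmel1* were at or below 0.128. *Ece1*, at 14.1, was thus the leading member of its family per length.

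Downstream of the receptors, a list of G protein alpha subunits, phospholipase C beta enzymes and calcium release channels was counted. *Gna12* (138 ± 3.63 CPM), *Gna11* (131 ± 6.11), *Plcb3* (104 ± 9.31) and *Gnaq* (55.1 ± 21.5) had the highest CPM (SD, n = 3). Of the 11 genes 10 differed between libraries, beside 81.5% of all genes tested. *Gna11* and *Gnaq* encode Gq family subunits, while *Gna12* and *Gna13*, also in the list, belong to the G12/13 family. *Gna11* was at 32.0 ± 1.49 and *Gnaq* at 8.91 ± 3.48 CPM per kilobase. *Gnaq* was at 75.9, 56.6 and 32.9 CPM, the library order of *Mef2c*, and *Gna11* at 124, 134 and 135 CPM was not. Among the other MEF2 factors and the class IIa deacetylases that bind them, *Hdac7* (132 ± 12.7 CPM), *Hdac5* (68.8 ± 17.1), *Mef2d* (34.3 ± 7.12) and *Mef2a* (32.0 ± 10.6) led. Per kilobase of exonic length, *Mef2d* was at 5.72 ± 1.19 and *Mef2a* at 2.18 ± 0.721, with *Mef2c* lower at 0.952 ± 0.445 (SD, n = 3). The level of *Mef2c*, a gene with 31 annotated transcripts, was 9.53 per kilobase of coding length. Coding length was not applied to *Mef2d* and *Mef2a*, so that value cannot be set beside theirs.

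Genes that depend on endothelin in the lower jaw all had counts in every library. *Dlx3* was at 20.5, 18.6 and 14.7 CPM, *Dlx5* at 6.63, 6.12 and 13.1 CPM, and *Hand2*, a known output of the pathway in distal mesenchyme, at 4.66, 7.59 and 7.27 CPM. *Gsc*, at 1.37, 2.3 and 15.5 CPM, and *Dlx5* were highest in OE replicate 3, the library in which *Mef2c* was lowest. *Gsc* and *Dlx5* have about 1270 and 2260 exonic bases and *Mef2c* about 15700, and the libraries also differed by gene length. A link between these levels was not tested. *Hand1* had 5, 2 and 1 counts. Of the 7 genes of this list 6 were tested and 5 differed between libraries, beside 81.5% of all genes tested. Genes of the maxillary region or known to hold endothelin signalling back were led in CPM by *Nr2f1* (240 ± 47.1 CPM), *Nr2f2* (111 ± 20.1), *Pou3f3* (33.9 ± 7.39) and *Jag1* (19.9 ± 6.11, SD, n = 3). Per kilobase, *Nr2f1* was at 47.0 ± 9.25, *Nr2f2* at 12.8 ± 2.34, *Pou3f3* at 4.58 ± 0.998 and *Jag1* at 3.41 ± 1.05 (SD, n = 3). On the same scale *Dlx3* was at 6.87 ± 1.14, *Gsc* at 5.03 ± 6.22, *Dlx5* at 3.81 ± 1.73 and *Hand2* at 2.77 ± 0.682 (SD, n = 3). These higher genes of the endothelin-dependent list were interleaved with *Pou3f3* and *Jag1*, below *Nr2f1* and *Nr2f2*. *Dlx6* (0.622), *Dlx4* (0.142) and *Hand1* (0.0354) were below all genes of the maxillary list. The list medians were 2.77 for the endothelin-dependent genes and 8.70 for the maxillary list. The mean of *Gsc* rested on OE replicate 3 and was 1.45 without it, below *Hand2* and *Jag1*.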

How the data were processed

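Poly-A RNA of E10.5 maxillary processes was sequenced as 150 bp paired reads, in 3 libraries of 1 genotype. The submitters' processing notes name mm10, FastQC, STAR 2.7.3a and HTSeq 0.12.4, and the authors deposited raw counts per gene without normalization. The annotation release and strand setting are not given in the sources used here. Rows that name no gene, 14.2% to 16.4% of counted reads, were left out of library sizes.

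Gene names, lengths and overlaps came from GENCODE M21 (GRCm38), in which 55141 of 55401 identifiers were found. All 9 members were matched to RefSeq promoters. CPM used TMM scaling in edgeR 4.0.16, which also gave dispersions of an intercept-only fit. With 1 group no contrast was fitted. Log2 values used a prior count of 2. DESeq2 1.42.0 gave alternative size factors. The chi-square step was tested on simulated counts. Figures were drawn in matplotlib 3.10.9, and pandas 2.3.3, scipy 1.17.1 and numpy 2.4.6 ran under Python 3.11.15 beside R 4.3.3. p-values measure the spread between these samples only.

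Members and lists were chosen with earlier results of these data known, and 3 list genes are not reported here or counted in the lists. Named genes were all members, at most the 4 genes of highest mean CPM of a list (1 of the neuron list and none of the blood list) with any at or under 3 counts, and the 3 genes nearest to *Edn1* and *Ednra*. Genes that share exons with a member were also named. *Dlx4*, *Dlx6*, *Gna13*, *Hand1*, *Mmel1*, *Myod1*, *Tek*, *Xist*, the Y chromosome genes and the genes nearest to *Ednrb* were named after values were seen. Ratios between members by length and *Gsc* without each library were added after values were seen. Alternatives were other scalings, lengths and filters, and leaving out each replicate.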

Additional observations from a re-analysis of the deposited data

How the results depend on the processing

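No paired analysis was possible because the 3 libraries form 1 group with no second group to pair with. The median over the 9 members, taken in each library and averaged over the libraries, was 1.32 CPM per kilobase, and was 2.38 with the longest transcript and 9.53 with coding length, as shorter lengths give higher values by construction. The share of *Edn1* in the ligand level, 5.99%, was 3.40% with coding length. Leaving out each replicate gave 0.751 to 1.73 for the median level, 4.56% to 6.84% for the *Edn1* share, 77.4% to 90.4% for the *Ednra* share, 4 to 6 neighbouring pairs with ranges apart (4 with all libraries, counting *Ece2* and *Edn2*, which cannot be ranked), 4 to 7 members beyond counting noise (4 without OE replicate 1) and 24 to 30 pathway genes. After the length class median was subtracted, *Edn3* (0.03) and *Ednra* (0.22) in OE replicate 3 and *Furin* in OE replicates 1 (-0.06) and 3 (0.08) changed sign, as did *Ednra* in OE replicate 3 with DESeq2 size factors (0.01), and the cause was not tested. The order of *Ednrb* and *Mef2c* turned with the longest transcript, with coding length and without OE replicate 1, *Edn3* passed *Ednra* and *Furin* with coding length, *Ednra* passed *Furin* with coding length and without OE replicate 1, and *Edn3* passed *Ednra* without OE replicate 2. *Edn1*, with 76 counts in all, and *Ece2*, with 21, are limited by depth.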
